A study of Mus musculus with 12 samples.

Results

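Activator protein 1 (AP-1) genes and immediate early genes that are induced beside them were followed across the prefrontal cortex (PFC) of mice that lived with microbes, without them, or with them only from weaning. The 9 genes were taken by name from the 41388 genes of the deposited count table: Fos, Fosb, Fosl2, Jun, Junb, Jund, Atf3, Ier2 and Ier5. All 9 were found, and all 9 passed edgeR's filter on low counts in each comparison. The mice were male Swiss Webster animals aged 10 weeks on the same autoclaved diet, in 3 groups of 4 libraries. Conventionally raised mice (CON) lived in a standard unit, germ-free mice (GF) stayed in gnotobiotic isolators, and germ-free mice colonized after weaning (exGF) were moved from isolators to the standard unit on postnatal day 21. The labels name no transgene or drug treatment. Each library pooled PFC RNA of 2 to 3 animals, so values vary between pools and not between single mice, and housing unit cannot be told apart from microbial status in GF.

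AP-1 is a dimer of basic leucine zipper proteins. A Fos protein needs a partner such as a Jun protein to bind DNA, whereas Jun proteins can also pair with one another or with relatives such as Atf3. In the cortex, Fos, Fosb and Junb are classical immediate early genes: calcium entry and MAP kinase signalling switch them on within minutes of synaptic activity through factors already present in the nucleus, and their RNA decays soon after. Jund, in contrast, is present in many resting cells, and Ier2 and Ier5 are immediate early genes whose proteins are no AP-1 subunits.

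The stretches just before the transcription start are shown for 5 of the genes because some of the signals that induce them are received there. Atf3, Fos, Ier5 and Junb were taken for the largest fitted fold changes in GF against CON and Jun for the smallest. Of the 9 genes, 8 matched a promoter in RefSeq (GRCm38.p6), and Ier2 had no entry there. Each line gives 150 bases up to the RefSeq start, read 5' to 3' on the strand of the gene, with capitals for the motif matches named after the lines. The regions are chr12:85473740-85473889 on the plus strand for Fos and, on the minus strand, chr4:95052223-95052372 for Jun, chr8:84978749-84978898 for Junb, chr1:191183334-191183483 for Atf3 and chr1:155099637-155099786 for Ier5.
Fos: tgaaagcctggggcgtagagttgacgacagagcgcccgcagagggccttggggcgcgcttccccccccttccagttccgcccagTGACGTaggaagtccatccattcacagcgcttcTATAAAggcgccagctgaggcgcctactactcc
Jun: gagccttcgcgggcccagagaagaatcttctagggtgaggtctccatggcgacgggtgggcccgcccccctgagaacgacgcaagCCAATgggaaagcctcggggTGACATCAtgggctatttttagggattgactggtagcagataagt
Junb: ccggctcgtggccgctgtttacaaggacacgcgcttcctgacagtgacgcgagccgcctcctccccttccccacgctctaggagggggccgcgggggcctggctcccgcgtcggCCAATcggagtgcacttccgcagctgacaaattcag
Atf3: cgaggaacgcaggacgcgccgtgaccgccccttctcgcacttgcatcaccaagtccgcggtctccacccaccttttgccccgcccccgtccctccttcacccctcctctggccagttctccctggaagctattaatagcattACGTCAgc
Ier5: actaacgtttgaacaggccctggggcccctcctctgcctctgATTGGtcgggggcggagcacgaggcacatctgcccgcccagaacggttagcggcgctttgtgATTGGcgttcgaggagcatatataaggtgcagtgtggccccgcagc
The capitals in Fos mark TGACGT, the core of the cyclic AMP response element, 66 to 61 bases before the start, and the TATA box core TATAAA 33 to 28 bases before it. In Jun they mark CCAAT at 65 to 61 bases and a match to the AP-1-like octamer TGACNTCA at 45 to 38 bases. Junb had CCAAT at 36 to 32 bases. In Atf3 the reverse complement of TGACGT stood 8 to 3 bases before the start, and in Ier5 the reverse complement of CCAAT stood at 2 places, 108 to 104 and 46 to 42 bases.

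Motifs were searched on both strands in the 250 bases before the start. TGACGT was found for 2 of the 8 genes and in 6.47% of 32851 RefSeq promoters, TGACNTCA for 1 of 8 and in 7.49%, TATAAA for 1 of 8 and in 12.4%, and CCAAT for 3 of 8 and in 33.8%. The AP-1 site TGANTCA (6.75% of promoters), the full cyclic AMP response element TGACGTCA (1.55%) and the CArG box of serum response factor (1.47%) had no match in these windows for any of the 8. Sites farther than 250 bases from the start were not searched, so a missing match does not mean that a gene lacks the site. TGACGTCA holds TGACGT and is a form of TGACNTCA, so these motifs can match at 1 place. The windows of Fosl2 and Jund, which are not shown, may not be promoters of the counted transcripts. The RefSeq start of Fosl2 lies 671 bases from its Ensembl gene start, and Ensembl exons overlap its window. The RefSeq start of Jund lies 1210 bases from its Ensembl gene start. The Atf3 start used by RefSeq lies inside the gene span, 34706 bases from the outermost Ensembl start. Ensembl exon bases reach into the Atf3 window, so its TGACGT match may lie partly within an exon.

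Counts on genes ran from 22757169 to 29134760 in CON, from 13280926 to 23465074 in GF and from 22702599 to 28615407 in exGF, and no pair of libraries of 1 group was as alike as sampling of reads alone would make them. Markers of cortical projection neurons summed to 1846 to 2158 CPM (counts per 1000000 counts, with library sizes adjusted by TMM) over the 12 libraries, against 2.61 to 14.2 CPM for choroid plexus. Striatal neuron markers stood apart in CON replicate 2 (266 CPM) and GFR4 (264 CPM), where the other 10 libraries were at 129 to 165 CPM, and the part of this in the levels of the 9 genes was not tested. Without CON replicate 2, Ier5 was again the only one of the 9 called in GF against CON, and the median log2 fold change of the 9 was 0.40 where it was 0.37 with all libraries. Without GFR4, none of the 9 was called in exGF against CON, and the median was 0.09 where it was 0.16. In exGF against GF none was called without GFR4 either, and the median was -0.31 where it was -0.18. The table names 4 columns GFR1 to GFR4. They were read as exGF, the one group left without columns, and these names were not matched to single samples. In bulk tissue, fewer cells of a type and less RNA per cell cannot be told apart, which holds for every level given here.

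Per kilobase of exon, the level of the 9 genes in CON spanned from Jund, 26.3 ± 6.03 CPM per kilobase (mean ± SD, n = 4 here and for every group value), to Atf3 with 0.197 ± 0.0945. The order after Jund was Ier5 with 21.4 ± 1.23, Junb with 17.0 ± 5.04, Jun with 14.1 ± 2.35 and Fos with 12.7 ± 4.14 CPM per kilobase. Among these 5 genes, the ranges of neighbours in the order overlapped. Below Fos stood Ier2 (4.94 ± 1.08), whose range did not reach that of Fos, then Fosl2 (3.68 ± 0.288), Fosb (2.35 ± 0.187) and Atf3, and in this lower part only Ier2 and Fosl2 overlapped. In GF the first place was held by Ier5, with 27.7 to 32.7 CPM per kilobase against 19.7 to 31.2 for Jund. In exGF Ier5 was again first, with 20.1 to 29.9 against 16.6 to 27.2 for Jund, although in both groups the pair overlapped. Of the 1668 exon bases by which Jund was divided, 877 are shared with a gene on the opposite strand and could not collect pairs lying wholly within them, so the level of Jund is understated and its order against Ier5 is uncertain. Fos stood above Jun in GF (18.4 ± 2.61 against 14.0 ± 1.34 CPM per kilobase) with no overlap between their libraries, and the last 4 places were the same genes in all 3 groups.

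**Figure D1:**
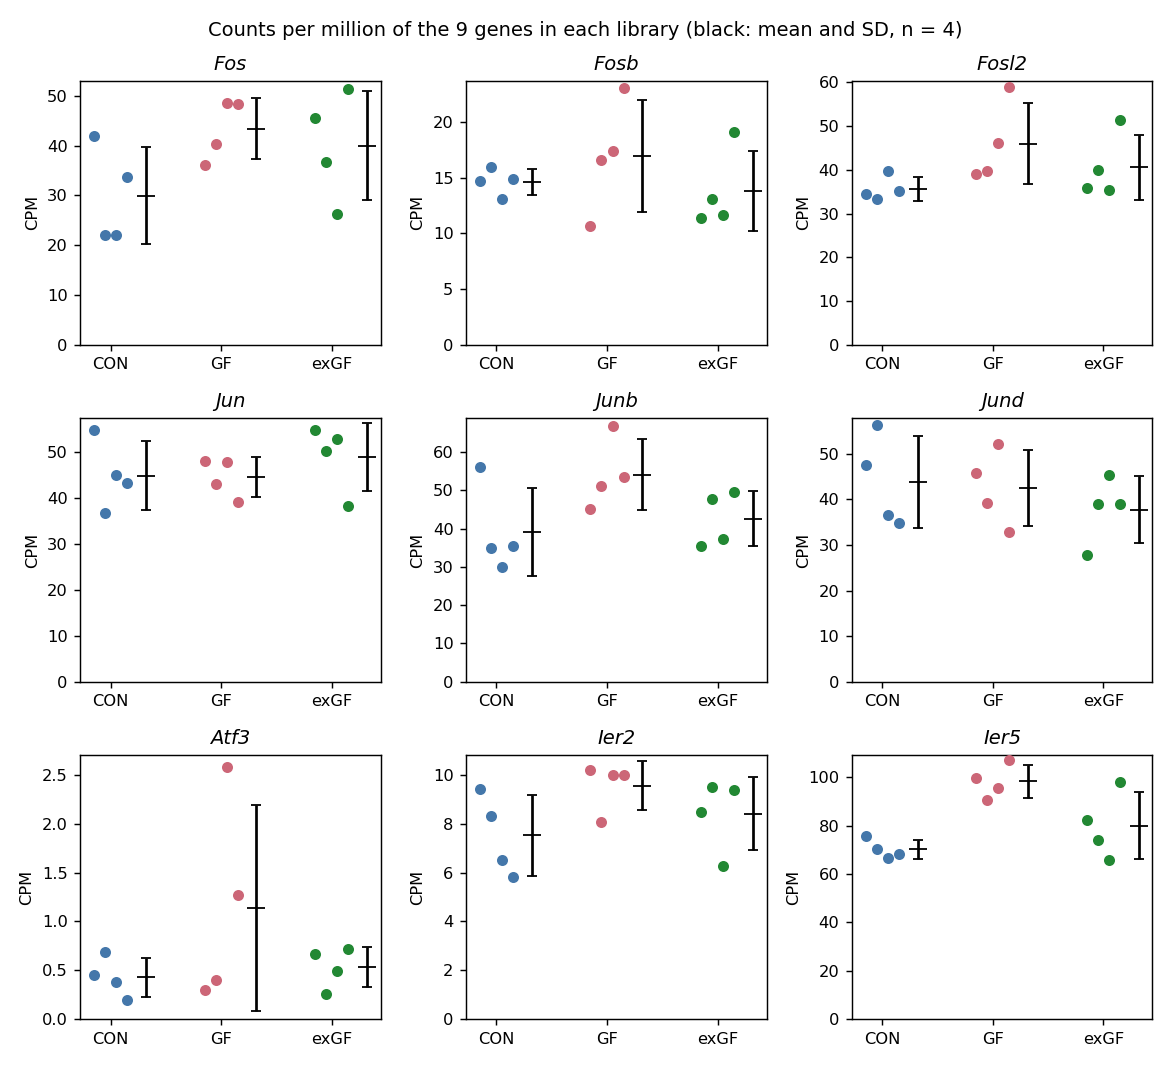
Each panel shows 1 gene, with the level in CPM on the vertical axis from 0 and the 4 libraries of CON, GF and exGF as points. Black bars give mean and SD (n = 4). The 4 GF points of Ier5 (90.8 to 107 CPM) lie above all 4 CON points (66.4 to 75.8 CPM), whereas for every other gene the GF and CON points overlap.

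The first comparison asked what differed in PFC that had never met microbes. Ier5 rose in GF, and it was the only one of the 9 genes called. Fos, Fosl2, Junb, Atf3 and Ier2 had higher means in GF without passing the test, with fitted log2 fold changes of 0.35 to 1.44, Fosb had 0.22, and Jun and Jund lay close to 0. In the edgeR quasi-likelihood test, with p-values adjusted over 15542 genes after Benjamini and Hochberg, 0.251% of all genes were called at an adjusted p under 0.1, and 0.116% were called higher in GF. Fold changes above 0 were found for 7 of the 9 genes, where 51.7% of all genes had them. The median log2 fold change of the 9 genes was 0.37, against 0.01 over all genes tested. An unadjusted p under 0.05 with a higher level in GF was found for 5 of the 9 (Fos, Fosl2, Junb, Atf3 and Ier5) and for 4.75% of all genes.

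Fos (ENSMUSG00000021250, chromosome 12 from 85473890 to 85477273, plus strand) encodes c-Fos, the subunit most used to mark recently active neurons. Its level in CON replicates 1 to 4 was 41.9, 22.0, 22.0 and 33.7 CPM. In GF it was 36.2, 40.4, 48.6 and 48.3 CPM, and in GFR1 to GFR4 it was 45.7, 36.7, 26.2 and 51.5 CPM. CON fell into 2 low and 2 higher libraries, and CON replicate 1 reached into the GF range. GFR1 and GFR2 were within the GF range, GFR4 above it and GFR3 below it. The mean was 29.9 ± 9.73 CPM in CON and 43.4 ± 6.14 in GF, a log2 fold change of 0.54 (SE 0.18, adjusted p = 0.398, edgeR quasi-likelihood test, Benjamini-Hochberg), which did not pass. Without the filter on low counts the log2 fold change was 0.52 and Fos was called (adjusted p = 0.0892, edgeR, Benjamini-Hochberg).

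Fosb (ENSMUSG00000003545, chromosome 7 from 19302696 to 19310051, minus strand) gives FosB and its truncated form, a stable product that builds up under repeated stimulation. It was at 14.7, 15.9, 13.1 and 14.9 CPM in CON, and in GF at 10.7, 16.6, 17.4 and 23.1 CPM. The CON libraries were close together, while GF replicate 1 was below every CON library and the other GF libraries were above them. The log2 fold change in GF was 0.22 (SE 0.17, adjusted p = 0.767, edgeR quasi-likelihood test, Benjamini-Hochberg).

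Fosl2 (ENSMUSG00000029135, chromosome 5 from 32135801 to 32157842, plus strand), which encodes Fra-2, was at 34.4, 33.3, 39.6 and 35.2 CPM in CON. In GF it was at 39.1, 39.6, 46.2 and 59.0 CPM. CON replicate 3 was the only CON library in the range of GF, and GF replicate 4 stood highest of all. The log2 fold change of 0.37 (SE 0.13) had an adjusted p of 0.392 in the edgeR quasi-likelihood test (Benjamini-Hochberg).

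Among the Jun genes, Jun and Jund showed little between GF and CON. Jun (ENSMUSG00000052684, chromosome 4 from 95049034 to 95052222, minus strand, a single exon) encodes c-Jun, the usual partner of c-Fos. It was at 54.7, 36.6, 44.9 and 43.1 CPM in CON and at 48.1, 43.0, 47.8 and 39.1 CPM in GF. All GF values lay inside the CON range, and the log2 fold change was -0.01 (SE 0.12). Its sign turned without CON replicate 1, GF replicate 2 or GF replicate 4. Jun shares 232 exon bases with Junos on the opposite strand, which had 7 to 26 counts.

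Jund (ENSMUSG00000071076, chromosome 8 from 70698949 to 70700616, plus strand, a single exon) encodes JunD, the most steadily expressed Jun protein. It was at 47.5, 56.4, 36.6 and 34.8 CPM in CON and at 45.9, 39.1, 52.1 and 32.8 CPM in GF. The groups covered nearly the same range, with a log2 fold change of -0.05 (SE 0.16) whose sign turned without CON replicate 2 or GF replicate 4. Of the 1668 exon bases of Jund, 877 are shared with Gm11175 on the opposite strand, and since counting ignored strand, pairs lying wholly within them were given to neither gene.

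Junb (ENSMUSG00000052837, chromosome 8 from 84974484 to 84978718, minus strand) encodes JunB, which can take the place of c-Jun in the dimer and often acts as the weaker activator. It was at 56.1, 35.0, 29.9 and 35.4 CPM in CON, and in GF at 45.0, 51.1, 66.8 and 53.3 CPM. The GF libraries were above CON replicates 2, 3 and 4, and CON replicate 1 stood among them. The log2 fold change was 0.47 (SE 0.17, adjusted p = 0.424, edgeR quasi-likelihood test, Benjamini-Hochberg). It was 0.69 without CON replicate 1, where Junb was called (adjusted p = 0.0674, edgeR, Benjamini-Hochberg). Junb shares 173 exon bases with Prdx2 on the opposite strand, a gene of 3735 to 7976 counts per library.

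Atf3 (ENSMUSG00000026628, chromosome 1 from 191170296 to 191218039, minus strand), a stress-induced partner of Jun proteins, was rare. It had 11, 16, 11 and 5 counts in CON, 4, 9, 48 and 23 in GF and 16, 6, 14 and 21 in GFR1 to GFR4. Its level was 0.451, 0.682, 0.375 and 0.190 CPM in CON and 0.297, 0.403, 2.58 and 1.27 CPM in GF. GF replicates 3 and 4 were above every CON library and GF replicates 1 and 2 were within the CON range. The log2 fold change of 1.44 had the widest error of the 9 genes (SE 0.59, adjusted p = 0.503, edgeR quasi-likelihood test, Benjamini-Hochberg). Without GF replicate 3 it was 0.65 (adjusted p = 0.844, edgeR, Benjamini-Hochberg). DESeq2, which shrinks fold changes of rare genes towards 0, gave 0.19 (SE 0.08, adjusted p = 0.447).

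Ier2 (ENSMUSG00000053560, chromosome 8 from 84661331 to 84662852, minus strand, a single exon), a nuclear protein induced early by growth factors, was at 9.43, 8.31, 6.51 and 5.82 CPM in CON. In GF it was at 10.2, 8.05, 9.99 and 10.0 CPM. Only GF replicate 2 came below the highest CON libraries. The log2 fold change was 0.35 (SE 0.16, adjusted p = 0.591, edgeR quasi-likelihood test, Benjamini-Hochberg).

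Ier5 (ENSMUSG00000056708, chromosome 1 from 155096361 to 155099636, minus strand, a single exon) encodes a relative of Ier2 that can activate heat shock factor. It was at 75.8, 70.1, 66.4 and 68.3 CPM in CON and at 99.8, 90.8, 95.5 and 107 CPM in GF. Every GF library was above every CON library, which was the case for 2.53% of all genes in this direction and for 1 of these 9. The mean rose from 70.2 ± 4.05 to 98.3 ± 6.89 CPM, a log2 fold change of 0.49 (SE 0.08, adjusted p = 0.0277, edgeR quasi-likelihood test, Benjamini-Hochberg). The call was lost in a single edgeR fit of all 12 libraries (adjusted p = 0.114), without CON replicate 3 (0.134) and without GF replicate 4 (0.124). Over the 18 alternatives the adjusted p ran from 2.47e-05 with DESeq2 on both groups to 0.134, and the log2 fold change from 0.39 to 0.52.

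Markers of other cells differed between the same libraries. Markers of mature oligodendrocytes, the myelin-forming cells, summed to 2025 to 2506 CPM in CON and to 3135 to 5286 CPM in GF, without overlap. All 7 of these markers had higher levels in GF and 4 of them were called, where 51.7% of all genes had higher values and 0.116% were called higher. Those of meninges summed to 150 to 208 CPM in CON and to 99.5 to 138 CPM in GF, also without overlap, with 6 of 6 lower and 1 called. Over all genes, 21 of 15542 were called lower in GF. General neuronal markers summed to 8866 to 10158 CPM in CON and to 10354 to 11346 CPM in GF, again without overlap. Of these, 6 of 6 were higher and none was called. The part of these differences in the levels of Ier5 and the other 8 genes was not tested.

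**Figure D2:**
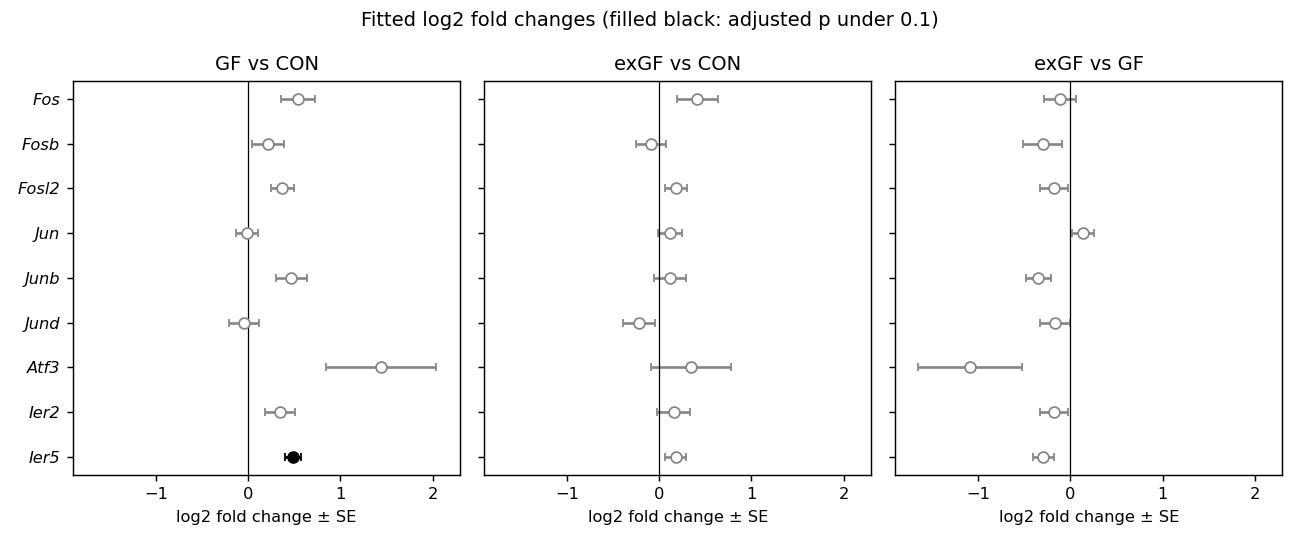
Fitted log2 fold change (horizontal axis, bars are SE) of each gene in the 3 comparisons, with a filled point for an adjusted p under 0.1. Ier5 in GF against CON (0.49, SE 0.08) is the only filled point, and Atf3 has the longest bars.

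The second comparison asked what differed in mice colonized only after weaning. None of the 9 genes was called between exGF and CON by edgeR, by DESeq2 or by limma-voom, where edgeR called 0.0696% of 15813 genes. None had an unadjusted p under 0.05 either, against 5.33% of all genes. The median log2 fold change of the 9 genes was 0.16, against -0.01 over all genes, and 7 of the 9 had a log2 fold change above 0, as did 47.9% of all genes. This comparison shares its CON libraries with the first, so both sets of values carry the same CON spread.

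For Fos, the exGF mean of 40.0 ± 11.0 CPM lay between those of CON and GF, and the log2 fold change against CON was 0.41 (SE 0.22, adjusted p = 0.952, edgeR quasi-likelihood test, Benjamini-Hochberg). GFR2 and GFR3 were within the CON range and GFR1 and GFR4 were above it. For Ier5, GFR1 to GFR4 were at 82.2, 73.8, 65.8 and 98.0 CPM. GFR4 was in the GF range, GFR1 lay between the ranges of CON and GF, GFR2 was within the CON range and GFR3 just below it, which left a log2 fold change of 0.18 (SE 0.11). Junb was at 35.5, 47.7, 37.2 and 49.7 CPM in GFR1 to GFR4, all within the CON range, with a log2 fold change of 0.12 (SE 0.18).

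Among the other genes, Fosl2 was at 35.9, 39.9, 35.3 and 51.3 CPM in GFR1 to GFR4, with GFR4 far above the CON range and GFR2 at its upper edge, with a log2 fold change of 0.18 (SE 0.12). Fosb was at 11.3, 13.1, 11.7 and 19.2 CPM and Ier2 at 8.49, 9.50, 6.29 and 9.39 CPM, with log2 fold changes against CON of -0.09 (SE 0.16) and 0.16 (SE 0.18). Jun was at 54.7, 50.1, 52.7 and 38.2 CPM and Jund at 27.7, 39.1, 45.3 and 38.9 CPM. Their log2 fold changes were 0.12 (SE 0.13) and -0.22 (SE 0.17), and for both genes the exGF and CON ranges overlapped. Atf3 was at 0.663, 0.259, 0.494 and 0.715 CPM, none near the GF libraries with the most Atf3, and its log2 fold change against CON was 0.34 (SE 0.43).

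The third comparison set colonization after weaning against staying germ-free. No gene at all was called (0% of 15569) in the edgeR quasi-likelihood test (Benjamini-Hochberg), and none of the 9 genes was called by DESeq2 or limma-voom. Over all genes 6.65% had an unadjusted p under 0.05. Fitted values were lower in exGF for 8 of the 9 genes, and Jun was the exception at 0.14 (SE 0.12), where 48.7% of all genes lay above 0. The median log2 fold change of the 9 genes was -0.18, against -0.00 over all genes. An unadjusted p under 0.05 with a lower level in exGF was found for 2 genes, Junb and Ier5, and for 3.35% of all genes. The GF libraries are those of the first comparison, so these values are not independent of those of GF against CON. Junb had a log2 fold change of -0.35 (SE 0.14, adjusted p = 0.736) and Ier5 one of -0.30 (SE 0.11, adjusted p = 0.736) in this edgeR test with Benjamini-Hochberg adjusted values. The remaining values were -1.09 (SE 0.57) for Atf3, -0.30 (SE 0.21) for Fosb, -0.18 (SE 0.15) for both Fosl2 and Ier2, -0.17 (SE 0.16) for Jund and -0.12 (SE 0.17) for Fos. The sign of the Fos value turned without GFR3, where it was 0.04.

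Within the Fos genes, c-Fos RNA made up most of the total. Taking Fos, Fosb and Fosl2 per kilobase of exon, Fos held 66.7 ± 7.32% in CON, 71.4 ± 2.50% in GF and 72.1 ± 4.49% in exGF, and the ranges overlapped. The total of these 3 genes was 18.8 ± 4.05 CPM per kilobase in CON, 25.9 ± 4.15 in GF and 23.4 ± 5.69 in exGF. Of Jun, Junb and Jund together, the mean share of Jund, understated by its shared bases, was the largest in each group, with 45.8 ± 6.91% in CON, 40.3 ± 3.60% in GF and 39.8 ± 4.81% in exGF. The share of Junb was 29.3 ± 4.38% in CON, 37.4 ± 4.41% in GF and 32.7 ± 4.67% in exGF, again with overlap. In GF replicate 4 Junb was above Jund (42.1% against 35.7%), and in GFR1 Jun was above Jund (34.9% against 33.8%). The total of the Jun genes was 57.3 ± 9.94, 62.9 ± 8.72 and 56.5 ± 5.05 CPM per kilobase. No test was run on these shares and totals.

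**Figure D3:**
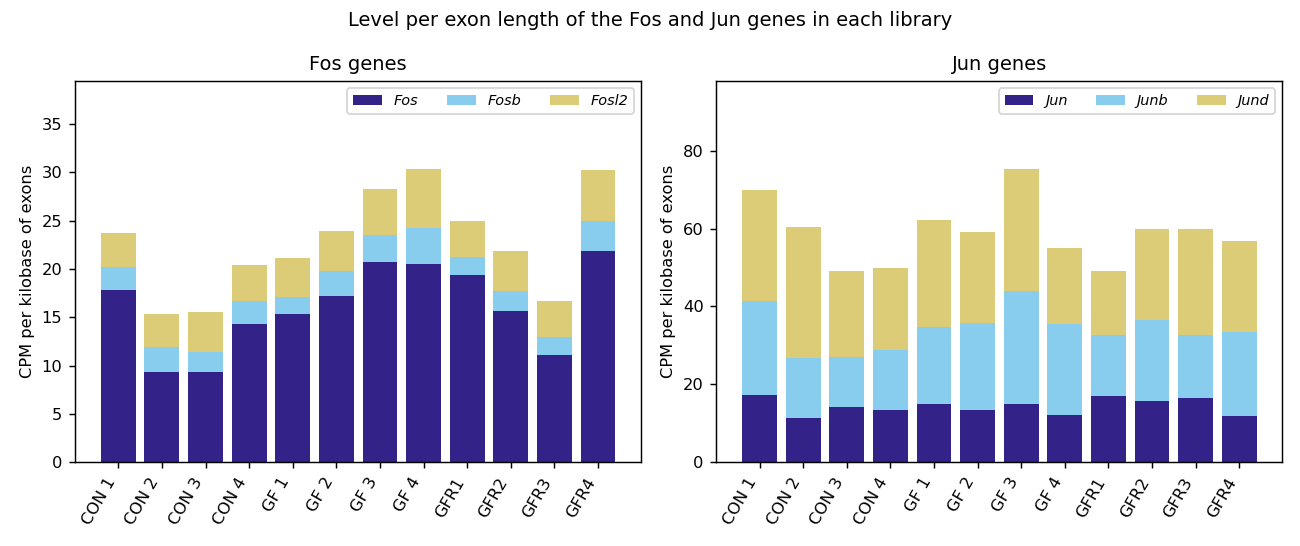
Stacked bars from 0 of CPM per kilobase of exon in each library, for Fos, Fosb and Fosl2 on the left and for Jun, Junb and Jund on the right. Fos is the tallest part of every bar on the left (60.1% to 77.8%), and the bars of CON replicates 2 and 3 and of GFR3 are the lowest on that side.

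The 9 genes were uneven among libraries of 1 group. In CON, the coefficient of variation was 5.76% for Ier5, 7.84% for Fosl2 and 7.95% for Fosb, against 32.5% for Fos, 29.6% for Junb and 48.0% for Atf3. CON replicate 1 held the highest value of its group for 5 of the 9 genes, and 8 of the 9 stood above the CON mean there. In the exGF group, GFR4 was highest for 6 genes, and in GFR3 only 3 of the 9 were above the CON mean. All 9 were above the CON mean in GF replicate 3 and 7 of 9 in each of the other GF libraries.

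**Figure D4:**
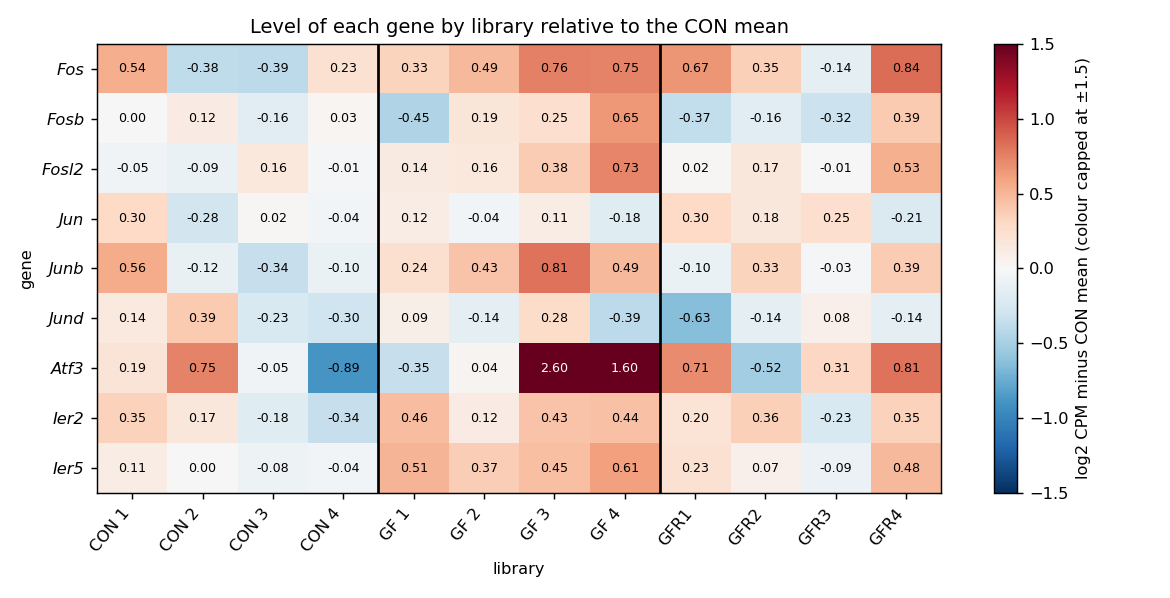
Colour and number give the log2 CPM of each gene (rows) in each library (columns) minus the CON mean of that gene, with the colour capped at 1.5 and black lines between groups. GF replicate 3 is above 0 for all 9 genes, with Atf3 at 2.60, whereas CON replicates 3 and 4 are below 0 for 7 of the 9.

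To ask whether the genes varied together beyond the groups, the log2 CPM of Fos was related to that of the other 8 genes over the 12 libraries after the mean of each group had been taken out. Over all 12 libraries Ier5 had the highest Pearson's r, at 0.72 (exact permutation test within groups, two-sided, p = 0.0153, adjusted p = 0.122 over 8 relations) and Spearman's rho = 0.67 (exact permutation p = 0.0270, adjusted p = 0.166). Junb had r = 0.69 (exact permutation p = 0.0324, adjusted p = 0.130) and rho = 0.65 (exact permutation p = 0.0414, adjusted p = 0.166). Of the 8 relations 0 passed an adjusted p of 0.05. For the remaining genes r was 0.48 for Ier2, 0.46 for Fosb, 0.39 for Fosl2, 0.24 for Atf3, 0.07 for Jun and -0.30 for Jund, with adjusted exact permutation p of 0.247 to 0.858. Without CON replicate 1 and GFR3, the libraries farthest from the median of Fos, the order was another, with r highest for Fosb (0.54), then Ier5 (0.48), Fosl2 (0.43), Junb (0.41) and Atf3 (0.32). Ier2 turned to -0.37 and Jun to -0.22 there, and Jund was at -0.35.

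The genes whose pattern over the 12 libraries was most like the mean z-score of the 9 were looked for among 14169 genes with a mean of at least 1 CPM. The 9 did not share 1 pattern: with the mean z-score of the other 8, r was -0.27 for Jun and -0.01 for Jund. Likeness to the mean is therefore not likeness to Jun or Jund. The 8 most alike by Pearson's r were Neurod2 (0.90), Tprn (0.89), Gltp (0.89), Klf4 (0.88), Irf2bpl (0.88), Sox10 (0.88), Mbp (0.87) and Mal (0.87), with Spearman's rho of 0.81 to 0.94. With group means taken out, Pearson's r ran from 0.74 for Mal to 0.92 for Tprn. Neurod2 encodes a transcription factor of cortical projection neurons, Klf4 is itself an immediate early gene, Sox10 encodes the lineage factor of oligodendrocytes, and Mbp and Mal encode myelin proteins. Between GF and CON, Mbp rose by log2 0.86 (SE 0.14, adjusted p = 0.0181) and Mal by log2 0.89 (SE 0.14, adjusted p = 0.0168) in the edgeR quasi-likelihood test (Benjamini-Hochberg). The other 6 were not called, with log2 fold changes from 0.19 for Neurod2 to 0.94 for Klf4. These genes were picked as the highest of many values, so their correlations carry no test.

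Genes that act before, beside and after AP-1 were examined as lists. In GF against CON, the list nearest to the 9 was that of 26 other immediate early genes, of which 22 had higher values in GF and 3 were called: Nr4a2, an orphan nuclear receptor, by log2 1.02 (SE 0.18, adjusted p = 0.0384), Sik1, a kinase that restrains CREB coactivators, by log2 0.82 (SE 0.15, adjusted p = 0.0426), and Dusp6, an ERK phosphatase, by log2 0.60 (SE 0.09, adjusted p = 0.0168, all by the edgeR quasi-likelihood test, Benjamini-Hochberg). Dusp6 ran from 61.6 to 79.0 CPM in CON and from 101 to 115 CPM in GF, and Nr4a2 from 10.1 to 12.1 CPM and from 14.0 to 30.6 CPM. Over all genes 51.7% had higher values in GF and 0.116% were called higher. Every GF library was above every CON library for 8 of the 26, against 2.53% of all genes, and 16 had higher values with an unadjusted p under 0.05, against 4.75%. The median of the list was 0.45 on the log2 scale, and its lowest value was -0.19 for Gadd45g.

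None of the 23 kinases, coactivators and transcription factors that carry activity signals to Fos and Jun promoters was called, against 0.251% of all genes. In GF 13 of the 23 had higher and 10 lower values, where 51.7% of all genes had higher ones. The median of the list was 0.05 on the log2 scale. The extremes were Crem, a cyclic AMP-responsive relative of CREB, at 0.32 (SE 0.15) and Mapk3, which encodes ERK1, at -0.45 (SE 0.10, adjusted p = 0.144, edgeR quasi-likelihood test, Benjamini-Hochberg). Every GF library was below every CON library for Mapk3, at 117 to 138 CPM against 149 to 204 CPM, which was the case for 396 of all 15542 genes tested. Mapk3 and Mef2a (0.21, SE 0.09) were the members of this list with an unadjusted p under 0.05. Of all 15542 genes, 738 had such a p with a higher level in GF and 612 with a lower one.

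Among other basic leucine zipper genes, 12 of 15 could be tested (Batf, Batf2 and Batf3 did not pass the filter). In GF 9 had higher and 3 lower values and none was called, against 51.7% higher and 0.251% called over all genes. The median log2 fold change of the 12 was 0.12, from -0.26 (SE 0.20) for Fosl1, which encodes Fra-1, to 0.38 (SE 0.28) for the small Maf gene Maff. Jdp2, whose product pairs with Jun and represses, was the only one with an unadjusted p under 0.05 (0.29, SE 0.10, adjusted p = 0.408, edgeR quasi-likelihood test, Benjamini-Hochberg). The 6 genes of mRNA and protein decay that clear AP-1 products were split evenly around a median of 0.02, between -0.14 (SE 0.18) for Zfp36l1, an mRNA decay factor, and 0.14 (SE 0.11) for Itch, a ubiquitin ligase of Jun proteins.

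Of 19 genes often listed as AP-1 targets, 18 were tested in GF against CON (Mmp3 did not pass the filter). Values were higher for 11 and lower for 7 and none was called, against 51.7% higher and 0.251% called over all genes. The median log2 fold change of the 18 was 0.10, and the extremes were Plaur, the urokinase receptor, at 0.51 (SE 0.44) and the protease gene Mmp9 at -0.38 (SE 0.26). Bdnf, a neurotrophin gene, was the only one of them without overlap, at 31.8 to 36.4 CPM in CON and 40.3 to 57.7 CPM in GF (log2 fold change 0.51, SE 0.12, adjusted p = 0.144, edgeR quasi-likelihood test, Benjamini-Hochberg). Over all genes, every GF library was above every CON library for 2.53%. An unadjusted p under 0.05 with a higher level in GF was found for Bdnf, Scg2 (0.23, SE 0.10) and Ccnd1 (0.24, SE 0.11). That was 3 of the 18 tested, against 4.75% of all genes.

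No gene of the 5 lists was called in exGF against CON or exGF against GF, where 0.0696% and 0% of all genes were. In exGF against CON, the other immediate early genes had a median log2 fold change of 0.31, from -0.26 (SE 0.18) for Gadd45g to 0.61 (SE 0.23) for Arc, a synaptic immediate early gene. Of these 26, 21 were higher, against 47.9% of all genes, and 8 had an unadjusted p under 0.05, against 5.33%. In exGF against GF, 23 of the 26 were lower, with a median of -0.21, from -0.70 (SE 0.25) for Klf4 to 0.31 (SE 0.15) for the antiproliferative gene Btg2, and 5 had an unadjusted p under 0.05. The first of these comparisons shares CON with the GF comparison and the second shares GF, so the values are given side by side only.

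In the remaining lists the lowest value of the basic leucine zipper genes in exGF against CON was that of Maf at -0.12, and the extremes of the other lists were Crtc2 at 0.31 and Mapk3 at -0.36, Zfp36 at 0.24 and Zfp36l1 at -0.10, and Pdyn at 0.14 and Timp1 at -0.70 on the log2 scale. Against GF they were Fosl1 at 0.27 and Maff at -0.47, Crtc2 at 0.27 and Crem at -0.35, Zfp36 at 0.15 and Itch at -0.12, and Mmp9 at 0.28 and Plaur at -0.53. The medians of these 4 lists lay between -0.01 and 0.03 in exGF against CON and between -0.15 and 0.04 in exGF against GF.

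**Figure D5:**
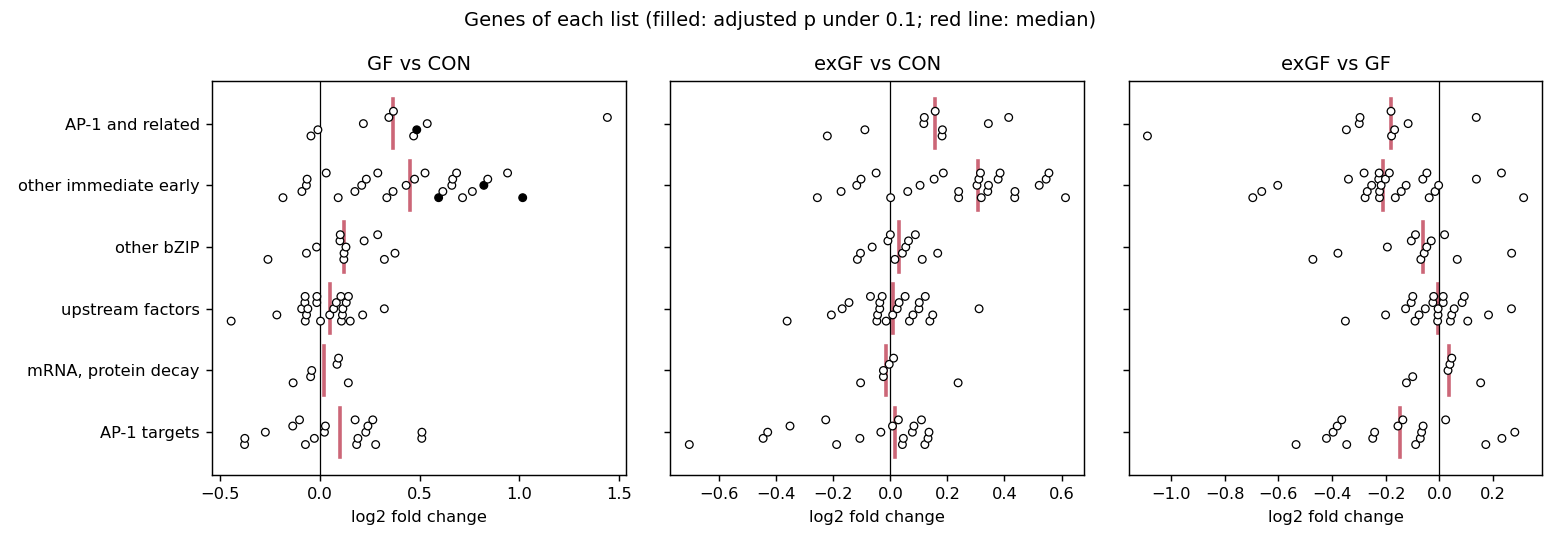
Each circle is 1 gene, placed by its log2 fold change (horizontal axis) in the 3 comparisons, with 1 row for each list and a red line at its median. The 4 filled circles (adjusted p under 0.1) are all in GF against CON, Ier5 in the top row and Dusp6, Sik1 and Nr4a2 in the next, and the horizontal scales differ between panels.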

How the data were processed

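PFC RNA of 12 libraries was polyA selected and sequenced after a stranded preparation. The authors trimmed read pairs (Trimmomatic 0.32), aligned them (STAR, 2.3.1u per the labels) to GRCm38 and counted them on Ensembl genes (HTSeq 0.6.0) without regard to strand. The deposited values are raw counts, used here without change apart from 5 summary lines left out (20.6% to 25.3% of pairs per library).

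Genes were filtered by edgeR 4.0.16 (filterByExpr), normalized by TMM, tested in pairs of groups by the quasi-likelihood test, adjusted by Benjamini-Hochberg over all genes tested and called at an adjusted p under 0.1. R 4.3.3, limma 3.58.1 and DESeq2 1.42.0 were used for alternatives: RLE or upper-quartile normalization, no filter, at least 10 counts in every library, robust fit, DESeq2 on 2 groups or 12 libraries, limma-voom, a single fit of 12 libraries, a threshold of 0.05, each library left out, and the replicate number as a block. On simulated data for GF against CON (15389 genes), 99.0% of 200 changed genes were called and 12.00% of 225 called genes were unchanged ones. The changes set there were large, with fitted medians of log2 0.992 and -0.988, and were drawn only from genes above a set mean level. The 99.0% therefore does not apply to rare genes such as Atf3. Nor does it apply to smaller changes such as log2 0.54 for Fos or 0.22 for Fosb.

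The 9 genes and all lists (160 of 160 genes matched by name to a GRCm38 annotation) were chosen with earlier results of these data known. All 9 genes are named in each comparison, as are genes of the 5 pathway lists that were called or had the largest change in either direction, and the 8 genes most alike in pattern. The result of 1 single gene of these lists is not reported here. Mef2a, Jdp2, Bdnf, Scg2 and Ccnd1 were named after their values were seen. Log2 CPM used a prior count of 1. No batch is given in the labels. Libraries within a group differed by a chi-square of 8.73 to 37.3 for the average gene (1 from sampling alone). This is a mean over genes and does not give the part of read sampling in the spread of a single gene. That part is larger the fewer counts a gene has, and Atf3 had the fewest of the 9. Nothing says that pools are separate cages or litters, so p-values measure the spread between these pools.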

Additional observations from a re-analysis of the deposited data

Results flagged for a closer look

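In GF replicate 2, Ier2 stood apart from the rest of its group, at 8.05 CPM where the other 3 GF libraries lay between 9.99 and 10.2 CPM. Its gap to the nearest of them was 0.908 of the range of the group, above the critical value of Dixon's test for 4 samples. It was the only one among 27 groups (9 genes in 3 groups of libraries), and chance alone gives about 1 in 20 groups.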

How the results depend on the processing

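In GF against CON, 1 of the 9 genes was called in most settings, 2 without the filter on low counts (Fos and Ier5) and 0 in a single edgeR fit of 12 libraries. With each library left out the number went from 0 to 2. It was 0 where CON replicate 3 or GF replicate 4 was dropped and 2 (Ier5 and Junb) where CON replicate 1 was. In the other comparisons it was 0 under every alternative run, and 0 of the 8 correlations with Fos passed with a prior count of 5 or RLE normalization. With each library left out, the log2 fold change in GF against CON ran from -0.10 to 0.10 for Jun (above 0 without CON replicate 1, 0.01 without GF replicate 2, and 0.05 without GF replicate 4) and from -0.16 to 0.10 for Jund (above 0 without CON replicate 2, and 0.06 without GF replicate 4). With the replicate number as a block that of Jun was 0.00049. That of Fosb in exGF against CON ran from -0.27 to 0.0057 (without GFR1), and that of Fos in exGF against GF from -0.26 to 0.041 (without GFR3). Of 508 fold changes of the 9 genes and correlations with Fos under alternatives, 495 kept their direction and their side of the threshold.

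Over all genes, 39 were called in GF against CON and 27 to 221 under alternatives (221 without a filter, 194 and 171 with DESeq2 on 2 groups and on 12 libraries). In exGF against CON there were 11, and 7 to 55 under alternatives, and in exGF against GF 0, and up to 32 without a filter. The cause was not tested. With the replicate number as a block, 51 genes were called in GF against CON, with Ier5 again the only one of the 9. Same-numbered CON and GF libraries did not deviate together (correlations of -0.03, -0.05, -0.04 and 0.03 over 16032 genes), so no pairing by number was seen. No test was run on these correlations, and they do not settle whether the numbers pair samples. Atf3, with 4 to 48 counts, could not be tested at a minimum of 10 counts in every library, and depth limits its values most.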

Other observations

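Markers of further cell types gave these values in GF against CON. Of 7 microglial markers 5 had lower values in GF and none was called, with sums of 339 to 402 CPM in CON and 307 to 347 CPM in GF. Endothelial markers were lower for 5 of 6, at 198 to 226 CPM in CON and 182 to 209 CPM in GF, and astrocyte markers were split evenly, at 3627 to 4146 CPM and 3654 to 4071 CPM. Oligodendrocyte precursor markers summed to 149 to 173 CPM in CON and 149 to 157 CPM in GF. Markers of cortical projection neurons were higher for 5 of 7 and those of striatal neurons lower for 5 of 6, and red blood cell genes were higher for 2 of 3. None of these lists held a called gene in the edgeR quasi-likelihood test (Benjamini-Hochberg). Over all genes 0.251% were called, and 51.7% had higher values in GF. Of 5 choroid plexus markers 3 passed the filter and none was called.

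In exGF, oligodendrocyte markers summed to 2009 to 3380 CPM. GFR4, the exGF library with the highest value for 6 of the 9 AP-1 and related genes, held the highest of these sums and also the highest sum of striatal neuron markers in its group (264 CPM against 130 to 165 CPM), and GFR3, the lowest for 4 of the 9, held the lowest. In GF the highest sum was that of GF replicate 3, where all 9 genes were above their CON mean. In CON the highest sum was that of CON replicate 2 (2506 CPM), just above CON replicate 1, highest for 5 of the 9, with 2473 CPM. CON replicates 3 and 4, each with 7 of the 9 genes below the CON mean, had 2025 and 2123 CPM. What links these values was not tested.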
